A study of Mus musculus with 48 samples.

Results

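The D-type cyclins Ccnd1, Ccnd2 and Ccnd3, the E-type cyclins Ccne1 and Ccne2, and their kinases Cdk2, Cdk4 and Cdk6 were followed through 48 RNA libraries of mouse embryonic stem cells. These 8 genes were matched by symbol among the 20171 genes of the count table. They were selected on measured values: Ccnd2 mRNA had been seen to rise in the lysates of Ago2 knockout cells. The other 7 genes serve as its relatives, and the values of all 8 in that contrast are a description without a test. For the same reason Ccnd2 is given without a test wherever HA-Tnrc6a or Ago2 knockout inputs enter a comparison.

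The cells were 129S6/SvEvTac embryonic stem cells grown with LIF on gelatin, and every line carried a GFP_5xT71BS reporter and a stably transfected FLAG-Cas9 cassette with blasticidin resistance. Untagged cells had only these transgenes, HA-Tnrc6a cells also had HA-AVI-Tnrc6a, and the knockouts were HA-AVI-Tnrc6a with Ago2-/- or with Upf1-/-. RNA was sequenced from each lysate (input) and from what HA magnetic beads recovered from it (immunoprecipitate, IP), so that untagged IPs give the bead background. Each of the 8 combinations of genotype and fraction had 6 libraries, numbered 1 to 6, of which 1 to 3 were taken as experiment 3 and 4 to 6 as experiment 4. That split is inferred, because the table's headings carry the number and not the experiment. Dishes were grown in triplicate. How many clones stand for a genotype is not given in the sources used here, so a difference between genotypes and a difference between clones cannot be told apart, and p-values measure the spread between these libraries.

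D-type cyclins bind Cdk4 and Cdk6, and E-type cyclins bind Cdk2. Both kinds of complex phosphorylate the retinoblastoma family, which frees E2F transcription factors to switch on genes of DNA replication. Embryonic stem cells are known for a short G1 phase. Tnrc6a is a GW182 protein, the link between an Argonaute protein loaded with a microRNA and the enzymes that deadenylate and silence the target mRNA.

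Several microRNA families are known to act on these genes, and a microRNA finds its target mainly through its seed, bases 2 to 8. MicroRNAs were not measured in these libraries. The mature sequences below, from RefSeq (GRCm38.p6), are shown because they are the best known links between Argonaute, Tnrc6a and the G1 genes. The seed is in capitals.
mmu-miR-16-5p: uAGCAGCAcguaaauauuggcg
mmu-let-7a-5p: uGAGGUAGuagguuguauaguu
mmu-miR-34a-5p: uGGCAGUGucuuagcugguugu
mmu-miR-26a-5p: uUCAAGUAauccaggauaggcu
mmu-miR-20a-5p: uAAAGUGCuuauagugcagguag
mmu-miR-294-3p: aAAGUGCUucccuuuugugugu
The seed of miR-16 is carried by 10 of the 1679 mature mouse microRNAs in that table, the seed of let-7a by 11, of miR-34a by 4, of miR-26a by 2, of miR-20a by 7 and of miR-294 by 5. By background knowledge, miR-16 targets D-type and E-type cyclins, let-7 targets Ccnd2 and Cdk6, miR-34a targets Ccne2, Cdk4 and Cdk6, miR-26a targets Ccnd2 and E-type cyclins, and miR-20a targets Ccnd1. The miR-294 family, abundant in embryonic stem cells, is known to speed the passage from G1 to S by repressing Cdkn1a and Rbl2. Whether the members' own untranslated regions hold these seed matches was not examined here.

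Library totals were 15383953 to 19595405 counts in inputs 1 to 3 and 26458831 to 37179105 in inputs 4 to 6. In IPs they were 11471544 to 18344233 and 25724085 to 73845953. Levels are in CPM, each count as a share of its library's TMM-scaled total over all 48 libraries. Ago2 mRNA was lower in Ago2 knockout inputs than in HA-Tnrc6a inputs by a log2 fold change of -1.21 ± 0.03 (SE; adjusted p = 6.3e-34). The label of the Upf1 knockout had no such check at the mRNA level, since in those inputs Upf1 stood 0.58 ± 0.03 above HA-Tnrc6a inputs (adjusted p = 1.17e-22). The direction of every difference below is therefore that of the label. The defining markers of embryonic stem cells (Pou5f1, Sox2, Nanog and 5 others) summed to between 5910 and 7405 CPM over the 24 inputs. Markers of other cell types were low by comparison, with sums of 6.84 to 60.3 CPM for 6 endoderm genes, 5.78 to 17.4 CPM for 5 mesoderm genes, 51.5 to 118.7 CPM for 4 neuroectoderm genes and 20.5 to 36.7 CPM for 3 detected fibroblast genes.

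Some members overlap other genes in RefSeq (GRCm38.p6), and whether counting used strand is not given in the sources used here, so their counts may include reads of the neighbour. Ccnd1 (chr7:144929931-144939831) overlaps LTO1, and Ccnd2 (chr6:127125162-127152188) overlaps 9330179D12Rik. Ccnd3 (chr17:47505051-47599689) overlaps Gm41590 and Bysl, and Ccne2 (chr4:11190433-11204779) overlaps A630034I12Rik and Ints8. Cdk2 (chr10:128697938-128705051) overlaps Pmel, Cdk4 (chr10:127063535-127067288) overlaps Tspan31, and Cdk6 (chr5:3341004-3531008) overlaps Gm36470 and Gm29868. Ccne1 (chr7:38097984-38107490) overlaps no other gene of that annotation.

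The members spanned a wide range in HA-Tnrc6a inputs. Per kilobase of the deposited gene length, Cdk4 was the highest in libraries 1 to 3 at 124.5 CPM per kb, followed by Ccne1 at 37.0, Ccnd3 at 33.9, Ccnd1 at 15.3, Cdk2 at 12.8, Ccne2 at 4.18, Cdk6 at 1.84 and Ccnd2 at 0.441 (means, n = 3). No neighbours in that order overlapped over the 3 libraries. In libraries 4 to 6 Ccnd3, at 59.4 CPM per kb, stood above Ccne1, at 53.8 CPM per kb, and the rest of the order was the same. Ccnd2 had the lowest level per kilobase in the inputs of every genotype except Ago2 knockout libraries 4 to 6, where it reached 3.09 CPM per kb and overlapped Cdk6, at 2.90 CPM per kb.

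**Figure D1:**
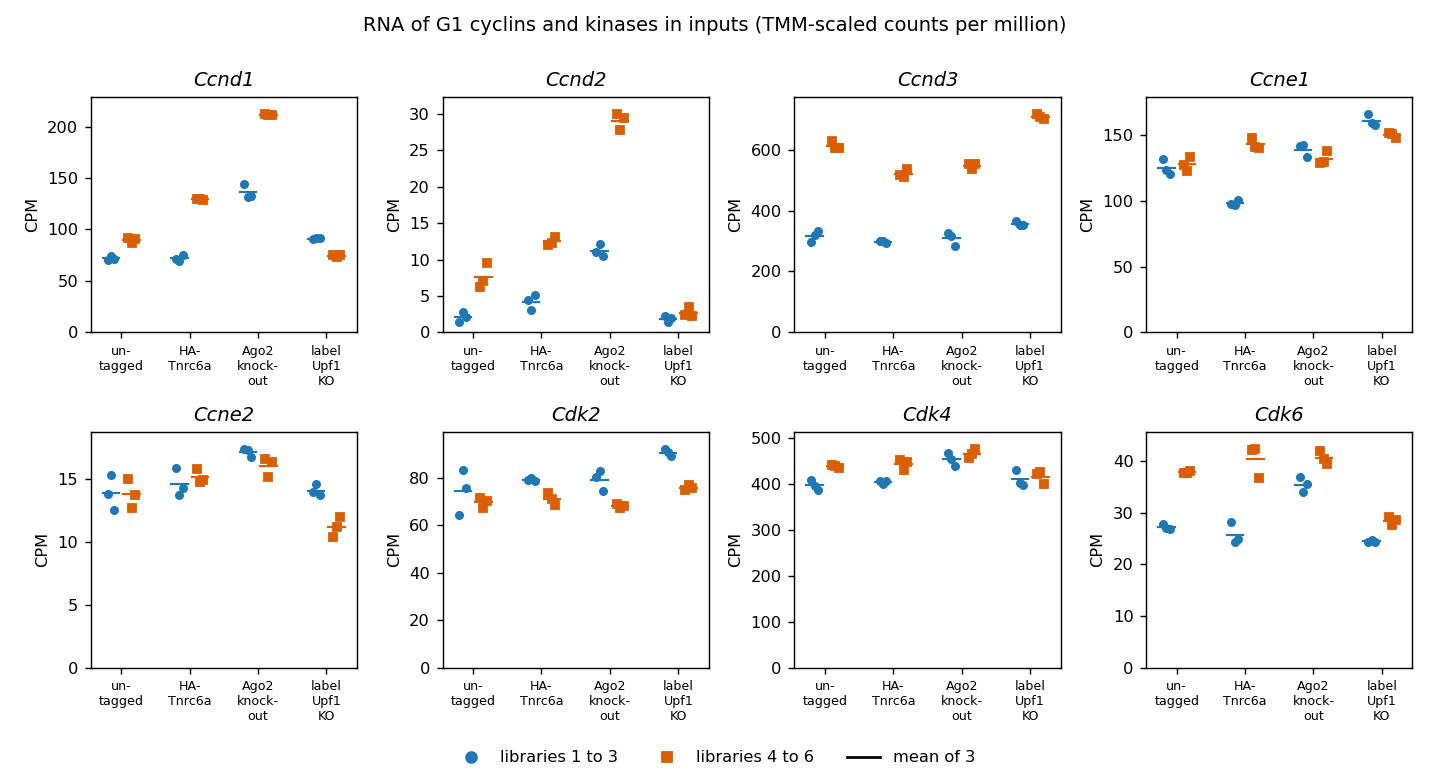
TMM-scaled CPM of each gene in the 24 inputs (linear axis from 0), by genotype, with 1 point per library and a line at the mean of 3. Ccnd2 and Ccnd1 were highest in Ago2 knockout inputs in both sets of libraries. Ccnd3, Ccnd1 and Cdk6 had no overlap between libraries 1 to 3 and 4 to 6 in any genotype. Ccnd2 overlapped between the sets only in inputs labelled Upf1 knockout. Ccne1 had no overlap in HA-Tnrc6a inputs or in inputs labelled Upf1 knockout. Cdk4, Cdk2 and Ccne2 also had none in some genotypes.

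Ccnd2 was a scarce mRNA in inputs. It measured 4.37, 2.99 and 5.08 CPM in HA-Tnrc6a inputs 1 to 3 and 11.1, 12.1 and 10.5 CPM in Ago2 knockout inputs 1 to 3. In libraries 4 to 6 it measured 12.02, 12.3 and 13.1 CPM in HA-Tnrc6a inputs and 30.0, 27.8 and 29.5 CPM in Ago2 knockout inputs. Every Ago2 knockout input was above every HA-Tnrc6a input of its own set, and the groups overlapped only when the sets were pooled. These levels rest on 53 to 501 counts per library in HA-Tnrc6a inputs and 190 to 1199 in Ago2 knockout inputs. The log2 fold change was 1.32 ± 0.08 (SE), or 1.42 ± 0.13 in libraries 1 to 3 and 1.22 ± 0.08 in libraries 4 to 6. Since this is the contrast that chose the genes, it has no test here.

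Among the other D-type cyclins, Ccnd1 was also higher in every Ago2 knockout input, while Ccnd3 differed little. Ccnd1 measured 71.2, 69.1 and 75.2 CPM in HA-Tnrc6a inputs 1 to 3 against 143.9, 132.0 and 132.7 CPM in Ago2 knockout inputs 1 to 3. In libraries 4 to 6 it measured 129.7, 129.6 and 128.6 CPM against 212.2, 210.9 and 211.0 CPM. The 6 Ago2 knockout inputs lay above all 6 HA-Tnrc6a inputs, with a log2 fold change of 0.81 ± 0.03. Ccnd3, the most abundant of the D-type cyclins, had a log2 fold change of 0.06 ± 0.03. Over both sets it measured 284.0 to 554.2 CPM in Ago2 knockout inputs and 292.6 to 534.8 CPM in HA-Tnrc6a inputs. The genotypes overlapped in libraries 1 to 3, while in libraries 4 to 6 every Ago2 knockout input was above every HA-Tnrc6a input.

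The E-type cyclins and the kinases had smaller log2 fold changes in that contrast. Ccne1 was 0.19 ± 0.03, but this average hides opposite directions, 0.50 ± 0.04 in libraries 1 to 3 and -0.12 ± 0.04 in libraries 4 to 6, with no overlap between genotypes in either set. Ccne2 was 0.15 ± 0.06, Cdk4 0.12 ± 0.02, Cdk6 0.23 ± 0.05 and Cdk2 -0.03 ± 0.03. For Cdk6 the value came from libraries 1 to 3, at 0.46 ± 0.07, against 0.01 ± 0.06 in libraries 4 to 6. The median over the 8 genes was 0.17, against -0.01 over all 19641 genes tested, of which 30.9% passed an adjusted p of 0.05 (15.7% higher, 15.2% lower).

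Markers of other cell types differed in the same contrast. All 6 endoderm markers were lower in Ago2 knockout inputs, with Gata6 at -3.23 ± 0.17 (adjusted p = 8.22e-20) and Sox17 at -2.98 ± 0.21 (adjusted p = 1.71e-15), and their summed level was 6.84 to 7.86 CPM against 20.5 to 31.3 CPM in HA-Tnrc6a inputs. Of these markers 2 were below 1 CPM in every Ago2 knockout input, and 1 in every HA-Tnrc6a input. All 4 neuroectoderm markers were higher, with a summed level of 108.8 to 118.7 CPM against 82.5 to 91.1 CPM. The 3 detected fibroblast markers were lower, at 20.5 to 29.5 CPM against 28.2 to 35.2 CPM, while the 4 mesoderm markers tested included 1 higher gene, Kdr at 1.27 ± 0.25 (adjusted p = 6.09e-05). Stem cell markers summed to 6845 to 7405 CPM against 6552 to 6711 CPM, with 6 of 8 higher and 1 lower. The part of these shifts in the cyclin values was not tested, and in bulk lysates fewer cells of a type and less RNA per cell cannot be told apart.

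Inputs labelled Upf1 knockout held little Ccnd2. Its level there was 2.27, 1.44 and 1.94 CPM for libraries 1 to 3 and 2.31, 3.43 and 2.18 CPM in libraries 4 to 6, below every HA-Tnrc6a input of the same set. In libraries 1 to 3 these levels overlapped those of untagged inputs. Compared with HA-Tnrc6a inputs, the log2 fold change was -1.70 ± 0.13, with -1.15 ± 0.21 in libraries 1 to 3 and -2.25 ± 0.15 in libraries 4 to 6. The Upf1 and Ago2 knockout comparisons share the HA-Tnrc6a inputs.

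Of the other 7 members, 3 rose and 3 fell in the inputs labelled Upf1 knockout. With 58.6% of all 19444 genes past the threshold, 29.5% higher and 29.0% lower, a share this large was common across the table. Ccnd3 rose by 0.35 ± 0.02 (adjusted p = 1.11e-18), from 292.6 to 301.4 CPM in HA-Tnrc6a inputs 1 to 3 to between 351.2 and 366.3 CPM, and from 510.8 to 534.8 CPM in inputs 4 to 6 to between 702.0 and 716.8 CPM. Ccne1 rose by 0.39 ± 0.03 (adjusted p = 4.8e-18), nearly all of it in libraries 1 to 3, at 0.70 ± 0.04, against 0.08 ± 0.04 in libraries 4 to 6. Cdk2, the partner of E-type cyclins, rose by 0.15 ± 0.03 (adjusted p = 1.79e-05).

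Ccnd1 had opposite directions in the 2 sets. It was 90.4, 91.4 and 91.7 CPM in libraries 1 to 3 labelled Upf1 knockout, above all 3 HA-Tnrc6a inputs, and 74.7, 73.0 and 75.3 CPM in libraries 4 to 6, below all 3. The log2 fold changes were 0.33 ± 0.04 and -0.78 ± 0.04, and their difference of -1.12 passed the test (adjusted p = 2.09e-20, where 11.6% of all genes did). The average of -0.23 ± 0.03 (adjusted p = 1.79e-09) therefore describes neither set. Ccne2 fell by 0.24 ± 0.06 (adjusted p = 0.000781) and Cdk6 by 0.28 ± 0.05 (adjusted p = 9.82e-07), but neither call was made in libraries 1 to 3 alone, where adjusted p was 0.612 for Ccne2 and 0.391 for Cdk6. Cdk4 did not pass, at -0.03 ± 0.02 (adjusted p = 0.212), with a 95% interval from -0.08 to 0.01, but passed as lower in libraries 4 to 6 alone (adjusted p = 0.0184).

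Marker sums in these inputs moved as well. Stem cell markers summed to 5910 to 6246 CPM in the inputs labelled Upf1 knockout against 6552 to 6711 CPM in HA-Tnrc6a inputs, and neuroectoderm markers to 51.5 to 68.3 CPM against 82.5 to 91.1 CPM. Endoderm markers ranged from 9.44 to 60.3 CPM. Fibroblast markers summed to 27.1 to 36.7 CPM against 28.2 to 35.2 CPM, and mesoderm markers to 8.75 to 17.4 CPM against 7.13 to 8.28 CPM. The lists did not shift as a whole, since 3 of 8 stem cell markers were higher and 5 lower. Endoderm had 1 of 6 higher and 2 lower, and neuroectoderm 0 of 4 higher and 2 lower. Fibroblast had 1 of 3 higher and 1 lower, and mesoderm 1 of 5 higher and 1 lower, with a median of -0.15. Across all genes 29.5% were higher and 29.0% lower. What part the markers had in the cyclin values was not tested.

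**Figure D2:**
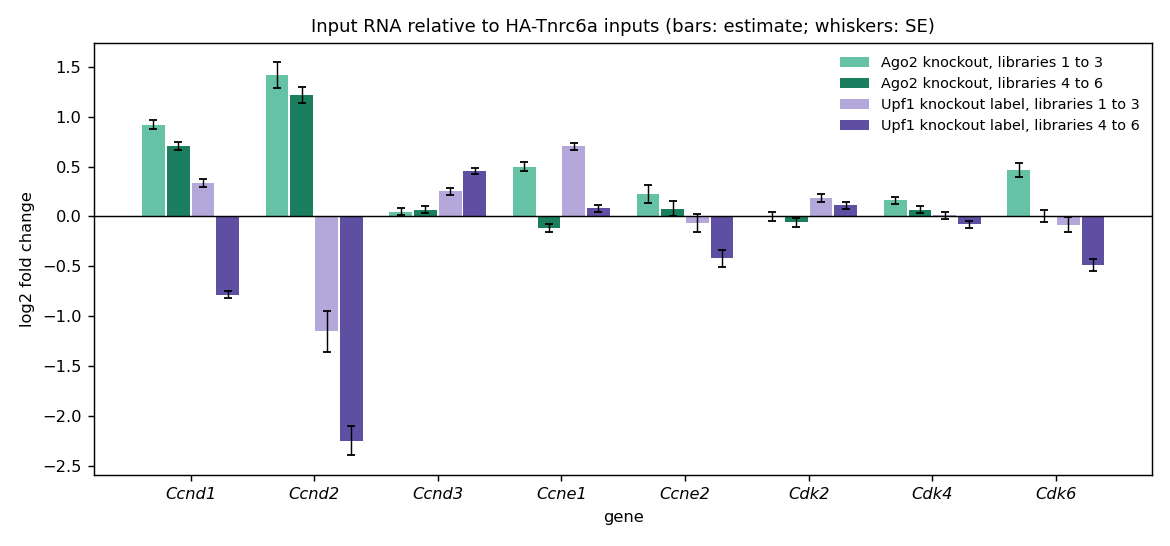
Log2 fold change of each gene in Ago2 knockout inputs and in inputs labelled Upf1 knockout relative to HA-Tnrc6a inputs, separately for libraries 1 to 3 and 4 to 6 (bars, estimates; whiskers, SE). Ccnd2 was above 0 in both Ago2 knockout sets and below 0 in both sets labelled Upf1 knockout, while Ccnd1 changed sign between the sets labelled Upf1 knockout and Ccne1 between the Ago2 knockout sets.

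Tagged and untagged cells, neither with an Ago2 or Upf1 knockout, differed too. A difference that goes with HA-AVI-Tnrc6a and a difference between lines cannot be told apart here. Ccnd2 was 1.40, 2.85 and 2.12 CPM in untagged inputs 1 to 3 and 6.24, 7.06 and 9.59 CPM in untagged inputs 4 to 6, below every HA-Tnrc6a input of the same set. The log2 fold change of HA-Tnrc6a over untagged inputs was 0.83 ± 0.14. Of the other 7 members, 2 passed the threshold in this comparison, against 15.4% of 19407 genes (7.74% higher, 7.67% lower). Ccnd1 was higher by 0.27 ± 0.03 (adjusted p = 2.99e-06), with 0.53 ± 0.05 in libraries 4 to 6 and 0.00 ± 0.05 in libraries 1 to 3, a difference between sets of 0.53 (adjusted p = 2.86e-05, where 3.40% of all genes passed). Ccnd3 was lower by 0.16 ± 0.03 (adjusted p = 0.000992), a call not made in libraries 1 to 3 alone (adjusted p = 0.521). Ccne1 missed the threshold at -0.09 ± 0.03 (adjusted p = 0.0665), being lower in libraries 1 to 3, at -0.35 ± 0.05, and higher in libraries 4 to 6, at 0.16 ± 0.05. Each set alone gave a call, as lower in libraries 1 to 3 (adjusted p = 0.00199) and as higher in libraries 4 to 6 (adjusted p = 0.000413). The average of Ccne1 over both sets passed without untagged input 1 (adjusted p = 0.0471) or untagged input 3 (adjusted p = 0.0418). Ccne2, Cdk2, Cdk4 and Cdk6 had values between 0.01 and 0.11, none past the threshold. This comparison again shares the HA-Tnrc6a inputs with those of the knockouts. Of the endoderm markers 1 of 6 was higher in HA-Tnrc6a inputs, Sox17 at 0.59 ± 0.14 (adjusted p = 0.0045), and their sum was 20.5 to 31.3 CPM against 11.1 to 34.6 CPM in untagged inputs. Of the neuroectoderm markers 1 of 4 was lower, Sox1 at -0.48 ± 0.08 (adjusted p = 1e-04), with sums of 82.5 to 91.1 CPM against 87.3 to 108.3 CPM. Stem cell markers had 3 of 8 higher and 1 lower, and none of the 5 mesoderm or 3 fibroblast markers passed. Some endoderm markers differed between sets, such as Sox7, at 1.17 in libraries 1 to 3 and -0.41 in libraries 4 to 6 (adjusted p of the difference = 0.000812). The part of these markers in the cyclin values was not tested.

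The IPs were read first in untagged cells, where nothing carries the HA tag. In these, 2 members were higher in IP than in input and 3 lower, against 35.7% of 19299 genes past the threshold (18.0% higher, 17.8% lower). Ccne2 was higher by 0.50 ± 0.09 (adjusted p = 0.000145) and Ccne1 by 0.34 ± 0.05 (adjusted p = 7.41e-06). Ccnd1 was lower by 0.41 ± 0.05 (adjusted p = 2.41e-06) and Cdk6 by 0.24 ± 0.07 (adjusted p = 0.00908), a call for Cdk6 that libraries 1 to 3 alone did not give (adjusted p = 0.398). Ccnd3 was lower by 0.13 ± 0.04 (adjusted p = 0.0287), a call lost in 7 of the 12 fits that left out 1 library, those without untagged inputs 2, 3, 4, 5 or 6 or untagged IPs 4 or 6 (adjusted p from 0.0512 to 0.0937). Ccnd2, Cdk2 and Cdk4 did not pass, at -0.13 ± 0.19, 0.03 ± 0.06 and -0.09 ± 0.04, although Cdk4 passed as lower without untagged IP 1 (adjusted p = 0.0136), with library totals (adjusted p = 2.19e-05) and with the replicate number as a block (adjusted p = 0.0261). These ratios depend on how libraries are scaled. With library totals in place of TMM the median of all genes fell by 0.17, and the share of called genes that were higher went from 50.3% to 20.9%.

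**Figure D3:**
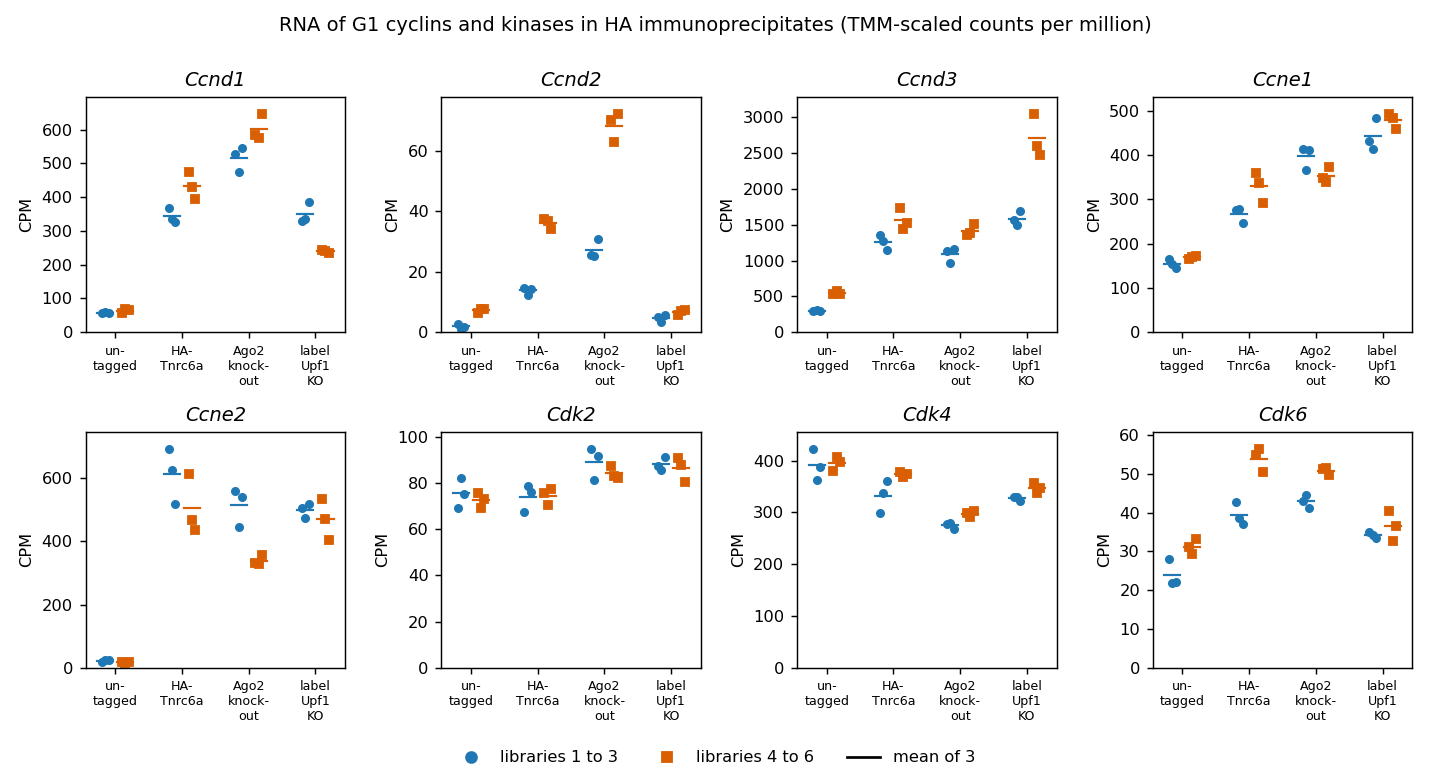
TMM-scaled CPM of each gene in the 24 HA immunoprecipitates (linear axis from 0), by genotype, with 1 point per library and a line at the mean of 3. Ccne2 was 14.9 to 24.9 CPM in untagged IPs and 329.1 to 691.6 CPM in the 18 tagged IPs, while Cdk2 stayed between 67.7 and 94.7 CPM in all 24.

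Recovery with HA-Tnrc6a was measured as enrichment, the log2 IP-over-input ratio of tagged cells less that of untagged cells. It separated the cyclins from Cdk2 and Cdk4. Of the 7 members tested, the 4 cyclins and Cdk6 were enriched and Cdk4 was lower, against 62.0% of 19993 genes past the threshold (29.8% higher, 32.2% lower). The median enrichment of the 8 members was 1.37, against -0.10 for all genes. With library totals in place of TMM the median of all genes fell by a further 0.16 and the members kept their directions.

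Ccne2 was the most enriched member. It measured 15.9, 13.7 and 14.3 CPM in HA-Tnrc6a inputs 1 to 3 and 691.6, 628.0 and 519.3 CPM in the IPs. In libraries 4 to 6 it was 15.8, 14.8 and 14.9 CPM in inputs and 614.1, 467.9 and 436.1 CPM in IPs. Every tagged IP was far above every input and every untagged IP. Its enrichment was 4.73 ± 0.14, a 26.6-fold ratio (adjusted p = 4.71e-21), which placed it at the 99.8th percentile of the genes tested, and it was 4.69 ± 0.20 and 4.77 ± 0.19 in the 2 sets. Per kilobase, Ccne2 went from sixth of the 8 genes in HA-Tnrc6a inputs 1 to 3 to the highest mean in IPs 1 to 3, at 175.4 CPM per kb. Its range there overlapped that of Ccnd3, at 143.1 CPM per kb. In HA-Tnrc6a IPs 4 to 6 Ccne2, at 144.8 CPM per kb, was below Ccnd3, at 178.4 CPM per kb, again with overlapping ranges. Ccne1, the relative of Ccne2 and at a higher level in inputs, was enriched by 0.98 ± 0.07 (adjusted p = 4.28e-14).

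The 3 D-type cyclins had intermediate values. Ccnd1 was enriched by 2.42 ± 0.07 (adjusted p = 1.35e-24), from 69.1 to 129.7 CPM in HA-Tnrc6a inputs to 325.7 to 475.4 CPM in IPs. Ccnd3 was enriched by 1.96 ± 0.07 (adjusted p = 1.74e-22), with 1147 to 1729 CPM in IPs. Ccnd2, not tested here, had an enrichment of 1.76 ± 0.21. Its larger error goes with low counts, 14 to 38 per library in untagged IPs 1 to 3, and its IP level was 14.7, 12.4 and 14.4 CPM in libraries 1 to 3 and 37.5, 36.7 and 34.3 CPM in libraries 4 to 6.

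The kinases were recovered unevenly. Cdk6 was enriched by 0.76 ± 0.09 (adjusted p = 5.29e-09), with 36.9 to 56.3 CPM in HA-Tnrc6a IPs and 24.2 to 42.2 CPM in inputs. Cdk4 was lower by 0.17 ± 0.06 (adjusted p = 0.0216), a call that neither set gave alone (adjusted p = 0.211 in libraries 1 to 3 and 0.127 in libraries 4 to 6). Cdk2 did not pass, at -0.04 ± 0.08 (adjusted p = 0.649; 95% interval from -0.20 to 0.12), while with library totals it passed as lower, at -0.20 (adjusted p = 0.0435).

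**Figure D4:**
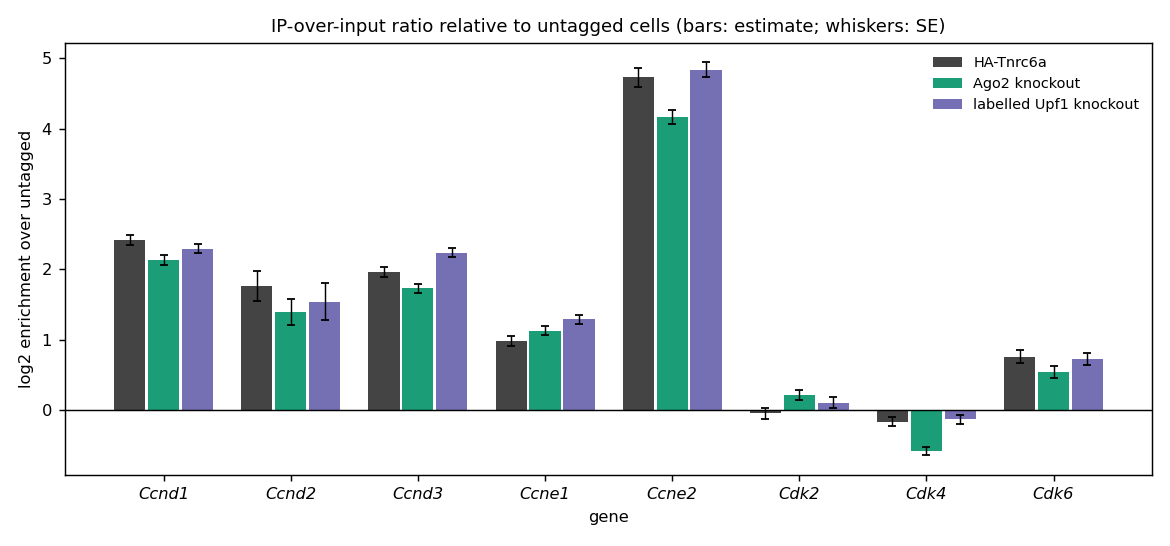
Log2 enrichment over untagged cells (IP-over-input ratio less that of untagged cells) of each gene in HA-Tnrc6a, Ago2 knockout and labelled Upf1 knockout cells (bars, estimates; whiskers, SE). In each genotype Ccne2 was the highest, between 4.17 and 4.84, the D-type cyclins lay between 1.40 and 2.42, and Cdk2 and Cdk4 were between -0.58 and 0.21.

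The enrichment persisted in Ago2 knockout cells. There the 7 members tested all passed the threshold, 6 higher and Cdk4 lower, against 64.7% of 19982 genes (31.5% higher, 33.2% lower). Ccne2 was at 4.17 ± 0.10, Ccnd1 at 2.13 ± 0.07, Ccnd3 at 1.73 ± 0.07, Ccnd2 at 1.40 ± 0.19, Ccne1 at 1.13 ± 0.06 and Cdk6 at 0.54 ± 0.08. Cdk4 was at -0.58 ± 0.06. Cdk2 passed at 0.21 ± 0.07 (adjusted p = 0.0128), but not with library totals (adjusted p = 0.526), not in libraries 1 to 3 alone (adjusted p = 0.269), and not without untagged IP 1 (adjusted p = 0.0869) or untagged IP 3 (adjusted p = 0.0594). The adjusted p of each of the other 6 was 3.3e-07 or less, while Ccnd2 has no test.

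In cells labelled Upf1 knockout 6 members were enriched and none was lower, against 63.6% of 19910 genes (31.8% higher and 31.8% lower). Ccne2 was at 4.84 ± 0.10, Ccnd1 at 2.30 ± 0.07, Ccnd3 at 2.24 ± 0.07, Ccnd2 at 1.54 ± 0.26, Ccne1 at 1.29 ± 0.07 and Cdk6 at 0.73 ± 0.09. Cdk2 was at 0.11 ± 0.07 (adjusted p = 0.209) and passed without untagged input 1 (adjusted p = 0.0239). Cdk4, at -0.13 ± 0.06, missed the threshold in the main fit (adjusted p = 0.0652) but passed it as lower with most changes of processing. These were DESeq2 (adjusted p = 0.000957), RLE size factors (0.00847), library totals (6.85e-07) and 1 fit of all 48 libraries (0.00179). It also passed in each set alone and with the replicate number as a block (adjusted p = 0.0478). Leaving out 1 library made it pass in only 4 of 24 fits, those without untagged IP 1, 2, 3 or 4 (adjusted p from 0.000398 to 0.0499). Library totals lowered the median of all genes here by 0.26 and the share of called genes that were higher from 50.0% to 36.4%. The 3 enrichments share the untagged libraries.

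The enrichment in Ago2 knockout cells was then compared directly with that in HA-Tnrc6a cells, a difference of ratios in which the untagged libraries cancel out. It contains the inputs of the contrast that chose the genes, and a higher Ago2 knockout input by itself lowers the ratio. Calls of members here are therefore not independent of that choice. Of the 7 members tested, 5 were recovered less and Cdk2 more, against 21.3% of 19995 genes past the threshold (9.09% higher, 12.3% lower). Of these 5, Ccne2 and Cdk4 were also lower in the IPs compared without inputs (below). There Ccnd1 was higher, and Ccnd3 and Cdk6 did not pass. Ccne2 fell by 0.57 ± 0.11 (adjusted p = 0.000219), Cdk4 by 0.42 ± 0.06 (adjusted p = 4.35e-06) and Ccnd1 by 0.29 ± 0.07 (adjusted p = 0.00253). Ccnd3 fell by 0.24 ± 0.08 (adjusted p = 0.0259) and Cdk6 by 0.22 ± 0.07 (adjusted p = 0.0275), but leaving out 1 library ended the call in 6 of 24 fits for Ccnd3 and 10 of 24 for Cdk6. For Ccnd3 these were HA-Tnrc6a input 2, Ago2 knockout inputs 1, 2 or 4 and Ago2 knockout IPs 4 or 5 (adjusted p from 0.0515 to 0.0671). For Cdk6 they were HA-Tnrc6a inputs 2, 3 or 6, HA-Tnrc6a IPs 1 or 5, Ago2 knockout inputs 1, 4 or 5 and Ago2 knockout IPs 3 or 6 (adjusted p from 0.0514 to 0.0812). Cdk2 rose by 0.25 ± 0.07 (adjusted p = 0.00487). Ccne1 did not pass at 0.14 ± 0.07 (adjusted p = 0.162), and Ccnd2, not tested, was at -0.37 ± 0.11. Ccnd1, Ccne2 and Cdk4 passed in each set alone. Cdk2 did not pass in libraries 1 to 3 alone (adjusted p = 0.171), and neither set alone gave the call for Ccnd3 (adjusted p = 0.209 and 0.0763) or for Cdk6 (adjusted p = 0.071 and 0.564).

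The same comparison for cells labelled Upf1 knockout gave 2 calls among the 7 members tested, against 4.49% of 19966 genes (2.92% higher, 1.57% lower). Ccne1 was recovered more by 0.30 ± 0.07 (adjusted p = 0.00656), but not with library totals (adjusted p = 0.0504). Ccnd3 was recovered more by 0.26 ± 0.07 (adjusted p = 0.03), a call ended by RLE size factors (adjusted p = 0.0839), library totals (0.149), no count filter (0.078) and 1 fit of all 48 libraries (0.0999). Leaving out 1 library ended the call for Ccnd3 in 19 of 24 fits, with adjusted p from 0.0502 to 0.245. The 5 fits that kept it left out HA-Tnrc6a IPs 4 or 6, input 1 labelled Upf1 knockout, or IPs 5 or 6 of that label. It ended the call for Ccne1 in 6 of 24, without HA-Tnrc6a inputs 3, 5 or 6, HA-Tnrc6a IPs 2 or 5 or IP 4 labelled Upf1 knockout (adjusted p from 0.0523 to 0.0929). Neither passed in libraries 1 to 3 alone. In this comparison the share of called genes that were higher was 65.1%, and 22.4% with library totals. Ccnd2, not tested, was at -0.23 ± 0.18. Ccnd1, Ccne2, Cdk2, Cdk4 and Cdk6 did not pass, with values between -0.13 and 0.14, but Ccnd1 passed as lower with library totals (-0.22, adjusted p = 0.0316).

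The IPs of Ago2 knockout and HA-Tnrc6a cells were also compared without the inputs, so that no library of the contrast that chose the genes took part, although each IP came from a lysate of the same cells. Of the 8 members 4, with Ccnd2 among them, were higher and 2 lower, against 39.7% of 18824 genes (20.8% higher, 19.0% lower). Ccnd2 was 25.6, 25.3 and 30.7 CPM in Ago2 knockout IPs 1 to 3 against 14.7, 12.4 and 14.4 CPM, and 70.0, 62.7 and 72.1 CPM in IPs 4 to 6 against 37.5, 36.7 and 34.3 CPM. No Ago2 knockout IP overlapped a HA-Tnrc6a IP of its set, and Ccnd2 was higher by 0.98 ± 0.07 (adjusted p = 1.53e-10). Because Ccnd2 was chosen for its rise in lysates of these cells, its IP value is not independent of that choice. Its p-value therefore adds no separate evidence of the rise. The difference in IPs, like that in inputs, was of the same sign in both sets, 1.02 ± 0.10 and 0.94 ± 0.09.

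Ccnd1 was higher in Ago2 knockout IPs by 0.56 ± 0.06 (adjusted p = 3.73e-07), with 474.3 to 646.1 CPM against 325.7 to 475.4 CPM. Ccne1 was higher by 0.37 ± 0.06 (adjusted p = 7.03e-05), a call not made in libraries 4 to 6 alone (0.12, adjusted p = 0.227), and the difference between sets passed (adjusted p = 0.033, where 3.31% of all genes did). Cdk2 was higher by 0.26 ± 0.06 (adjusted p = 0.00104), and its 6 Ago2 knockout IPs, at 81.3 to 94.7 CPM, lay above all 6 HA-Tnrc6a IPs, at 67.7 to 78.9 CPM. Ccne2 was lower by 0.38 ± 0.08 (adjusted p = 0.000931) and Cdk4 by 0.27 ± 0.06 (adjusted p = 0.00117), and in libraries 1 to 3 alone neither passed (adjusted p = 0.260 and 0.136). Ccnd3 and Cdk6 did not pass, at -0.14 ± 0.07 (adjusted p = 0.131) and 0.05 ± 0.06 (adjusted p = 0.519), although Ccnd3 passed as lower with library totals (adjusted p = 0.0252) and in 1 fit of all 48 libraries (adjusted p = 0.00529).

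The wider G1 to S machinery was read from 6 lists with 58 genes tested: CDK inhibitors, the retinoblastoma and E2F families, ubiquitin ligase components that turn over G1 cyclins and inhibitors, the CDK-activating kinase, S and M phase cyclins with Cdk1 and its regulators, and replication genes under E2F. In the HA-Tnrc6a enrichment 30 of the 58 were higher and 21 lower, with a median of 0.29 against -0.10 over the whole table, in which 29.8% were enriched and 32.2% lower. The retinoblastoma and E2F list had 11 of 13 genes enriched and 1 lower, with a median of 2.08. Rbl2, a pocket protein that holds E2F in check, was at 5.08 ± 0.13 (adjusted p = 4.89e-24), and the activator E2f2 at 5.03 ± 0.13 (adjusted p = 2.06e-22). Cdkn1a, which encodes the CDK inhibitor p21, was at 5.80 ± 0.11 (adjusted p = 9.77e-28), above Ccne2. Of the 7 CDK inhibitors 3 were enriched and 2 were lower. Replication genes, by contrast, had 5 of 14 enriched and 8 lower, with a median of -0.21, and none of the 3 genes of the CDK-activating kinase was enriched.

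In the Ago2 knockout inputs 19 of the same 58 genes were higher and 15 lower, with a median of 0.02, where 15.7% of all genes were higher and 15.2% lower. The 34 calls became 20 in libraries 1 to 3 alone and 20 in 1 fit of all 48 libraries. E2f2 fell by 0.83 ± 0.07 (adjusted p = 1.95e-13) and Rb1 rose by 0.55 ± 0.05 (adjusted p = 7.91e-12), while Cdkn1b, which encodes the inhibitor p27, fell by 0.21 ± 0.04 (adjusted p = 4.3e-05). Of the 14 replication genes 8 rose and none fell, among them Mcm3 at 0.18 ± 0.02, Mcm7 at 0.17 ± 0.02 and Rrm2 at 0.15 ± 0.02. In the inputs labelled Upf1 knockout 11 of the 58 were higher and 28 lower, with a median of -0.09, where 29.5% of all genes were higher and 29.0% lower. Cdkn1c, which encodes the inhibitor p57, fell by 1.38 ± 0.07 (adjusted p = 1.98e-21), and like Ccnd2 it had the larger decrease in libraries 4 to 6, at -2.01 against -0.75.

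**Figure D5:**
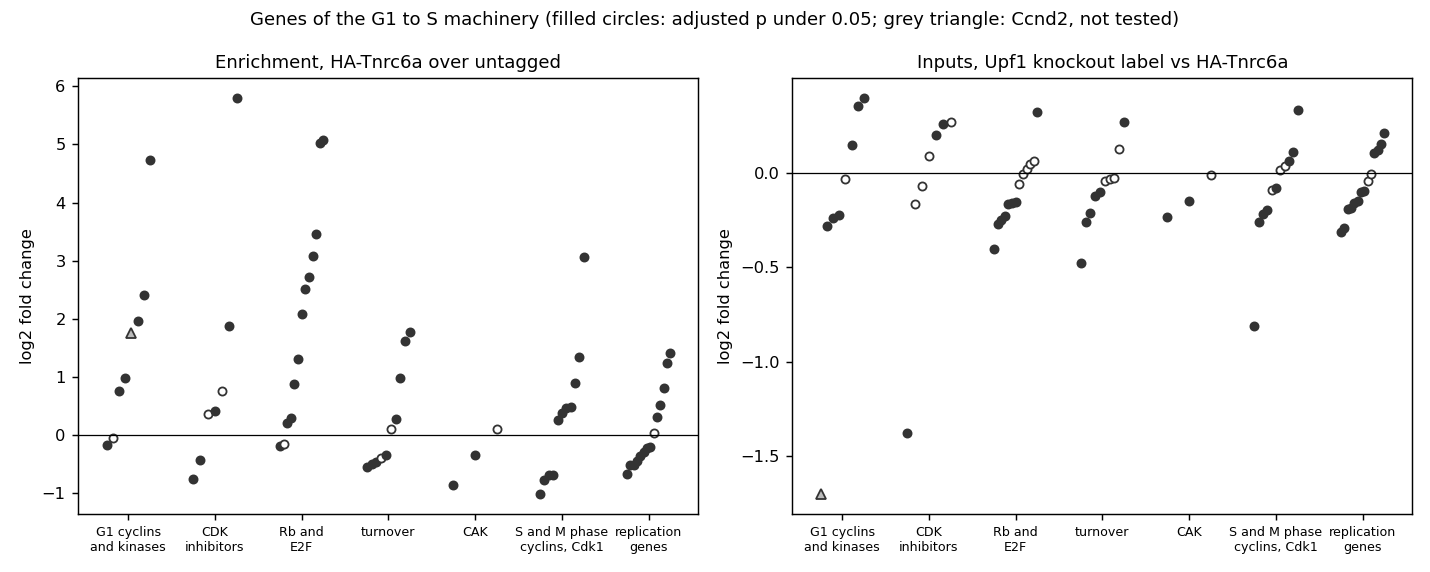
Log2 fold change of each gene of the G1 cyclins and kinases and of 6 lists of the G1 to S machinery, for enrichment with HA-Tnrc6a over untagged cells (left) and for inputs labelled Upf1 knockout against HA-Tnrc6a inputs (right); filled circles passed an adjusted p of 0.05, and the grey triangle is Ccnd2, not tested. On the left Cdkn1a, Rbl2, E2f2 and Ccne2 lie at 4.73 or higher, and on the right Ccnd2, at -1.70, is the lowest point.

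Over the 24 inputs, after subtracting the mean of each set, Ccnd2 and Ccnd1 followed each other with a Pearson's r of 0.87 (log2 CPM), while Ccnd3 ran against Ccnd2 with an r of -0.71. Ccne2 followed Ccnd2 with an r of 0.87, Cdk6 with an r of 0.84 and Cdk4 with an r of 0.82, although their fold changes between genotypes were far smaller. Among 10681 genes with a mean log2 CPM of at least 3, the pattern of Ccnd2 was closest to those of Dpysl3 (r = 0.98), Slc6a15 (r = 0.97), Enah (r = 0.96), Bpnt1 (r = 0.96) and Tlcd3a (r = 0.96). The pattern of Ccnd1 was closest to those of Ipo11 (r = 0.96), Rcor2 (r = 0.96), Mob4 (r = 0.95), Nanog (r = 0.95) and Zfp819 (r = 0.94). These values describe 4 genotypes with 6 libraries each, so libraries of a genotype share its level and are not independent points.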

How the data were processed

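The authors deposited raw counts per gene for 48 libraries, made with a stranded TruSeq total RNA kit per the labels. Reads were processed with bcl2fastq 2.20 and STAR 2.7.3a against GRCm38 (mm10), per the submitters' processing notes. Levels per kilobase used the deposited gene lengths in bases, and 48 further deposited columns of per-library values were not used. Counts were tested with edgeR 4.0.16 (limma 3.58.1, R 4.3.3): TMM scaling, filterByExpr with a minimum count of 10, robust quasi-likelihood F-test (two-sided), 1 coefficient per genotype, fraction and set of libraries, contrasts averaged over both sets, and Benjamini-Hochberg adjustment over all genes tested, called under 0.05. DESeq2 1.42.0 was an alternative. The fits were tested on simulated data. No replicate pair differed by as little as sampling noise (chi-square per degree of freedom 1.96 to 36.2 over 48 pairs), and some libraries were far from their replicates. HA-Tnrc6a input 3 was at 34.3 and 28.9 from inputs 1 and 2, which were at 2.66 from each other. IP 4 labelled Upf1 knockout was at 26.3 and 36.2 from IPs 5 and 6, which were at 4.69 from each other. The total counts per library set the counting error. Intervals (95%, from the same fit) cover the spread between libraries. Seed matches in untranslated regions, planned as a search, were not run. From each list outside the 8 members, up to 3 called genes of largest change and like sign in both sets were named, and correlates of Ccnd2 and Ccnd1 were the 5 highest. Endoderm, mesoderm, neuroectoderm, fibroblast and stem cell markers were checked in inputs. Tests of Ccnd2 were planned also where HA-Tnrc6a or Ago2 knockout inputs enter, but are not given, since those inputs chose it. The members and lists were chosen with earlier results of these data known.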

Additional observations from a re-analysis of the deposited data

Results flagged for a closer look

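Several members differed between libraries 1 to 3 and 4 to 6 in the size or sign of a genotype effect, by a test of that difference in 7 of 66 tests (edgeR, adjusted over all genes). In inputs labelled Upf1 knockout against HA-Tnrc6a, the effect in libraries 4 to 6 less that in libraries 1 to 3 was -1.12 for Ccnd1 (adjusted p = 2.09e-20), 0.21 for Ccnd3 (adjusted p = 0.000969), -0.62 for Ccne1 (adjusted p = 9.13e-13) and -0.40 for Cdk6 (adjusted p = 0.00201). Across all genes 11.6% passed that test.

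Between HA-Tnrc6a and untagged inputs the difference was 0.53 for Ccnd1 (adjusted p = 2.86e-05) and 0.51 for Ccne1 (adjusted p = 4.22e-05), where 3.40% of all genes passed. Between Ago2 knockout and HA-Tnrc6a IPs it was -0.49 for Ccne1 (adjusted p = 0.033), where 3.31% of all genes passed. Ccne1 in Ago2 knockout inputs was above every HA-Tnrc6a input in libraries 1 to 3 and below every one in libraries 4 to 6, a difference of -0.62 that was not tested. In HA-Tnrc6a inputs Ccne1 itself was 96.7 to 100.9 CPM in libraries 1 to 3 and 140.5 to 148.0 CPM in libraries 4 to 6, and this group entered each of the 3 input comparisons. A gap test of the lowest and the highest of the 6 libraries of a group flagged none of the 64 groups of values examined. It pooled both sets, so where the sets differ, a library apart only from its own set could go unflagged.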

How the results depend on the processing

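Of the 66 tested values of members, 64 kept their call with RLE size factors, 58 with library totals, 65 without the count filter, 62 with all 48 libraries in 1 fit, 65 with DESeq2, 48 in libraries 1 to 3 alone and 58 in libraries 4 to 6 alone. Leaving out 1 library kept 1166 of 1224. A call or a described value turned direction for Ccne1 in Ago2 knockout inputs (-0.11 in libraries 4 to 6 alone), Ccnd1 in inputs labelled Upf1 knockout (0.33 in libraries 1 to 3 alone) and Ccne1 in HA-Tnrc6a against untagged inputs (0.16 in libraries 4 to 6 alone). A further 10 tested values, at most 0.13 in size and without a call in either fit, changed sign in at least 1 alternative, to values between -0.24 and 0.02: Ccnd1, Ccne2 and Cdk4 in the recovery of cells labelled Upf1 knockout, Cdk4 in their inputs, Cdk2 in their enrichment and in that of HA-Tnrc6a cells, Ccnd2 and Cdk2 in untagged IP over input, and Cdk6 in Ago2 knockout IPs and in HA-Tnrc6a against untagged inputs. Libraries 1 to 3 alone gave 20 called genes of the 6 lists in Ago2 knockout inputs in place of 34. For HA-Tnrc6a against untagged inputs these libraries gave 1 called member in place of 2. It was another gene, Ccne1 as lower (adjusted p = 0.00199), while Ccnd1 and Ccnd3 both lost their calls. Members called in libraries 1 to 3 alone were 3 in place of 5 for untagged IP over input. They were 3 in place of 6 for the recovery in Ago2 knockout cells, and 0 in place of 2 for that in cells labelled Upf1 knockout. All 48 libraries in 1 fit gave 20 list genes in place of 34. For the recovery in cells labelled Upf1 knockout, RLE factors, no filter and 1 fit of all libraries each gave 1 called member, Ccne1, library totals gave 1 other, Ccnd1 as lower, and leaving out 1 library gave 0 to 2. The cause of these changes was not tested. Fits of libraries 1 to 3 alone, or with 1 library left out, also held fewer libraries. With RLE factors 52.8% of called genes in that comparison were higher, and 36.5% with 1 fit of all libraries.

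The labels do not say what a shared replicate number stands for. Deviations from group means correlated by 0.07 on average over all same-numbered libraries (range -0.29 to 0.67) and by 0.10 between input and IP of the same genotype and number (range -0.06 to 0.51, over 0.1 in 41.7% of pairs). With the replicate number as a block, 64 of 66 calls were kept, and members called were 6 in place of 5 for untagged IP over input and 7 in place of 6 for the enrichment in cells labelled Upf1 knockout, with Cdk4 the gene added in both (adjusted p = 0.0261 and 0.0478). Depth limits Ccnd2 most, at 14 to 38 counts in untagged IPs 1 to 3.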

Other observations

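Outside the 8 members, the recovery in Ago2 knockout cells against HA-Tnrc6a cells was higher for 11 and lower for 8 of the 58 list genes, where 9.09% of all genes were higher and 12.3% lower. Of the 10 genes tested in the list on turnover of G1 cyclins and inhibitors, 3 were higher, 3 lower and 4 neither. Fbxw7, which marks cyclin E for destruction, was recovered more by 0.63 ± 0.08 (adjusted p = 2.68e-07), and Skp2, which marks p27, was recovered less by 0.51 ± 0.06 (adjusted p = 2.54e-07). E2f5 was recovered less by 0.69 ± 0.09 (adjusted p = 4.23e-07). Cdt1, a licensing factor of replication, was recovered more by 0.54 ± 0.07 (adjusted p = 3.18e-07). None of the 7 CDK inhibitors passed in that comparison.

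In cells labelled Upf1 knockout 6 of the 58 were recovered more and 1 less, where 2.92% of all genes were higher and 1.57% lower. With library totals the share of called genes that were higher went from 65.1% to 22.4%. The phosphatase Cdc25a, which activates Cdk2, was recovered less by 0.50 ± 0.07 (adjusted p = 7.94e-06), while its mRNA was higher in the inputs by 0.33 ± 0.03 (adjusted p = 3.9e-14). In untagged cells Ccnb2, a mitotic cyclin, was higher in IP than in input by 1.71 ± 0.05 (adjusted p = 2.5e-15).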
